A study of Mus musculus with 12 samples.

Results

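The comparison described here is the average difference between mutant and control kidney transcriptomes, taken over both lipodystrophic mouse lines of the study. It used all 12 of the 12 arrays, 6 from mutant and 6 from control mice. The Pparg null mice (PpargΔ/Δ), which lack the nuclear receptor PPARγ, were set against control mice on the same mixed C57BL6/SV129 background. The AZIP mice were set against FVB control mice of their own background. Every group held 3 arrays, each hybridised with a pool of whole-kidney RNA from 3 mice aged 3 weeks, so 36 mice contributed in all. For each of 19938 genes an additive limma model took out the difference between the mixed and the FVB background and estimated 1 common mutant effect. That effect is the equal-weight mean of the Pparg null difference and the AZIP difference. It is given below as log2 expression, mutant minus control, with its SE from 6 mutant and 6 control arrays. A gene passed the threshold at a limma adjusted p under 0.05.

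The lines lose fat by different routes. PPARγ drives the formation of fat cells, and A-ZIP is, as generally described, a dominant-negative leucine zipper protein that blocks the transcription factors fat cells need. The sources used here state neither how the null allele was made, nor the promoter of the AZIP transgene, nor the sex of the mice. Animals without fat tissue have no store for triglyceride and little leptin, and are known for insulin resistance, high insulin and fatty liver. The kidney is itself a large user of fatty acids: proximal tubule cells take them up, burn them in mitochondria and peroxisomes, and switch on the genes for this through the related receptor PPARα. The tubule is also a target of insulin, glucocorticoids and the circadian clock, and at weaning it is still maturing.

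Pparg itself was read on each array. Its probe set read 8.0, 8.2 and 8.01 on the Pparg null arrays and 7.90, 7.97 and 8.02 on the mixed control arrays. It read 8.23, 8.17 and 8.16 on the AZIP arrays and 7.96, 7.94 and 8.0 on the FVB control arrays. The AZIP arrays lay above their controls, while the Pparg null and mixed control arrays overlapped. The common effect was 0.16 ± 0.04 (limma adjusted p = 0.0254), and it lost the threshold when any 1 of 6 arrays was left out (Pparg null 2, mixed control 1, AZIP 1 or 2, FVB control 1 or 2), the largest limma adjusted p being 0.061. A probe set that spans the transcript does not check a deletion of unstated extent, so the genotypes rest on the labels. Xist read between 12.2 and 12.3 and the Y-linked Eif2s3y between 3.07 and 3.33 on all 12 arrays, with no array standing apart.

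The mutant kidneys of both lines shared many small changes. The common effect passed the threshold in 2500 of 19938 genes (12.5%), 1239 higher in the mutants (6.21%) and 1261 lower (6.32%), and 5224 genes had an unadjusted p under 0.05. The median size among the 2500 genes was 0.225 on the log2 scale, and the median of all genes was -0.00258. A change of at least 1.5-fold was found in 123 of them, 65 higher and 58 lower, and a change of at least 2-fold in 24, 12 in each direction. In 1657 of the 2500 genes, 808 higher and 849 lower, the 3 mutant and 3 control arrays did not overlap in either line. Such separation, the same way in both lines, was found in 1910 of all genes (9.58%). Tested in 1 line at a time, 1384 of the 2500 genes passed in neither line and 246 passed in both. All 2500 genes had the same sign in both lines. The additive model in part sets this, since it counts a difference between the lines as residual spread, and across all genes 65.5% had the same sign. The count was 1657 without mixed control 1, with 816 genes lower, and between 1854 and 2514 without any other single array.

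**Figure D1:**
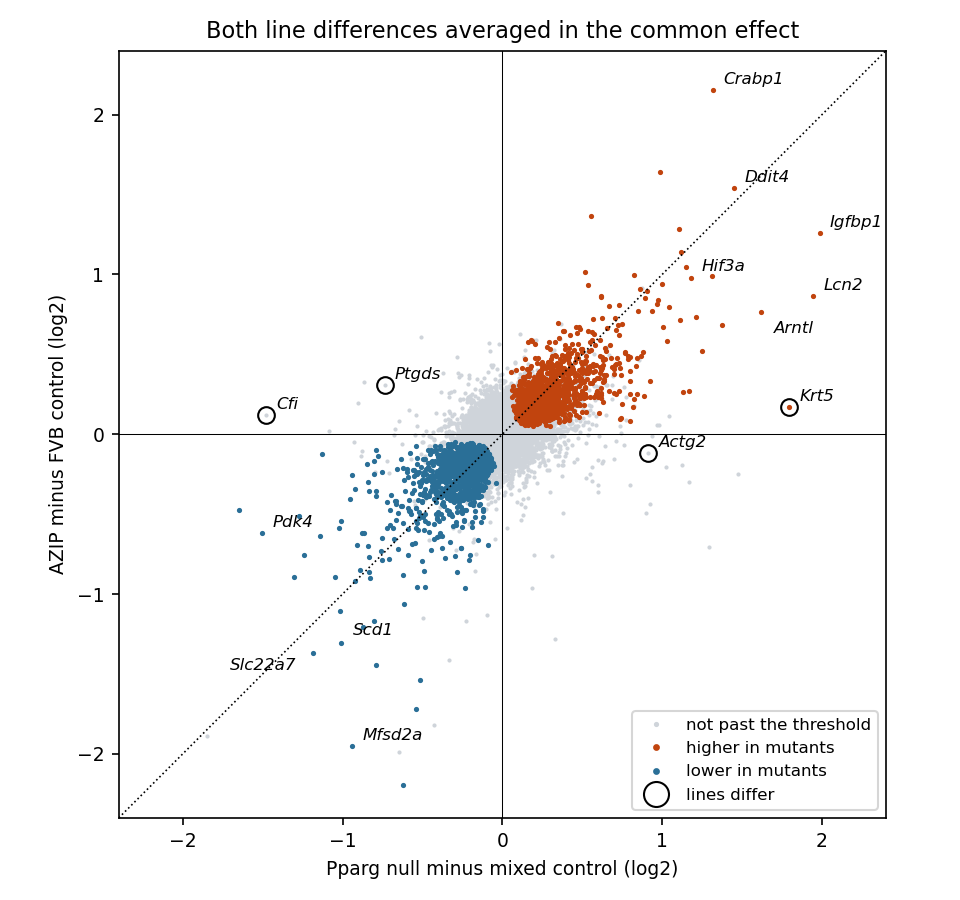
Each point is 1 of 19938 genes, placed by its difference between Pparg null and mixed control arrays (horizontal, log2) and its difference between AZIP and FVB control arrays (vertical, log2), each a difference of means of 3 arrays. The 1239 genes higher in both mutants (red) and the 1261 lower (blue) lie to the upper right and lower left, around the dotted line of equal change. The 4 circled genes are those in which the lines differed, with Krt5 changed mainly in the Pparg null line.

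The largest rises were taken among genes past the threshold whose arrays did not overlap in either line, leaving out predicted genes, and belong to several systems. Crabp1, a cytosolic carrier of retinoic acid, led with 1.74 ± 0.23 (3.33-fold, limma adjusted p = 0.000667). It read 9.0, 9.92 and 10.02 on the Pparg null arrays against 8.23, 8.44 and 8.33 in their controls. On the AZIP arrays it read 9.88, 10.27 and 11.07 against 8.24, 8.13 and 8.39. Pparg null 1 was the lowest of the mutants. Separation from the controls in both lines was a condition of the choice, here and for the other genes of the largest rises and falls.

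Igfbp1, the secreted IGF-binding protein whose transcription insulin switches off, followed with 1.62 ± 0.22 (3.08-fold, limma adjusted p = 0.000853). The Pparg null arrays read 11.86, 11.47 and 11.41 against 9.84, 9.55 and 9.39, and the AZIP arrays 11.49, 11.87 and 10.43 against 9.74, 10.10 and 10.16. AZIP 3 lay closest to its controls without reaching them. Ddit4, a stress- and glucocorticoid-induced brake on mTORC1, rose by 1.5 ± 0.14 (2.82-fold, limma adjusted p = 0.000133). Its Pparg null arrays read 10.35, 10.59 and 10.17 against 9.03, 8.99 and 8.74, and its AZIP arrays 10.47, 9.94 and 9.62 against 8.15, 8.4 and 8.85. For Ddit4 the difference was 1.45 in the Pparg null line and 1.54 in the AZIP line.

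The remaining genes of the 15 largest rises were Lcn2 (1.40), the secreted lipocalin NGAL, Depp1 (1.31), a FoxO-induced protein of autophagy, Penk (1.2), the precursor of the enkephalins, Arntl (1.19), which encodes the clock activator Bmal1, and Ms4a4a (1.15). They continued with the protease inhibitor Serpina3n (1.13), the kinase Wnk3 (1.10), the hypoxia-inducible factor subunit Hif3a (1.08), the clock-linked repressor Nfil3 (1.03), Arhgef37 (0.97), the endothelial membrane protein Tmem100 (0.97) and the phospholyase Etnppl (0.96). The 15 largest falls, chosen the same way, began with Mfsd2a (-1.45), a transporter of lysophosphatidylcholine, Slc22a7 (-1.27), an organic anion transporter, Scd1 (-1.16), the stearoyl-CoA desaturase, Serpina1f (-1.13) and Pik3c2g (-1.12), a class II phosphoinositide kinase. Next came Dnase1 (-1.10), Ifitm7 (-1.06), Pdk4 (-1.06), the kinase that closes pyruvate dehydrogenase, Akr1d1 (-1.03), a steroid reductase, Dbp (-1.0), a clock output factor, and Fcamr (-0.97), the receptor for IgA and IgM. Dio1 (-0.89), which activates thyroxine, Cyp2e1 (-0.89), Rdh16f2 (-0.87) and Eci3 (-0.86), a peroxisomal enoyl-CoA isomerase, completed the list. Of these 30 genes, Serpina1f lost the threshold without any 1 of 9 arrays (Pparg null 2 or 3, mixed control 1, 2 or 3, AZIP 2, FVB control 1, 2 or 3; limma adjusted p up to 0.104). Akr1d1 lost it when AZIP 2 or FVB control 2 was left out, with 0.0523 as its largest limma adjusted p. Without a term for strain background 8 of the 30 genes missed the threshold (limma adjusted p 0.0548 to 0.273): Serpina3n, Etnppl, Slc22a7, Serpina1f, Ifitm7, Akr1d1, Cyp2e1 and Rdh16f2.

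**Figure D2:**
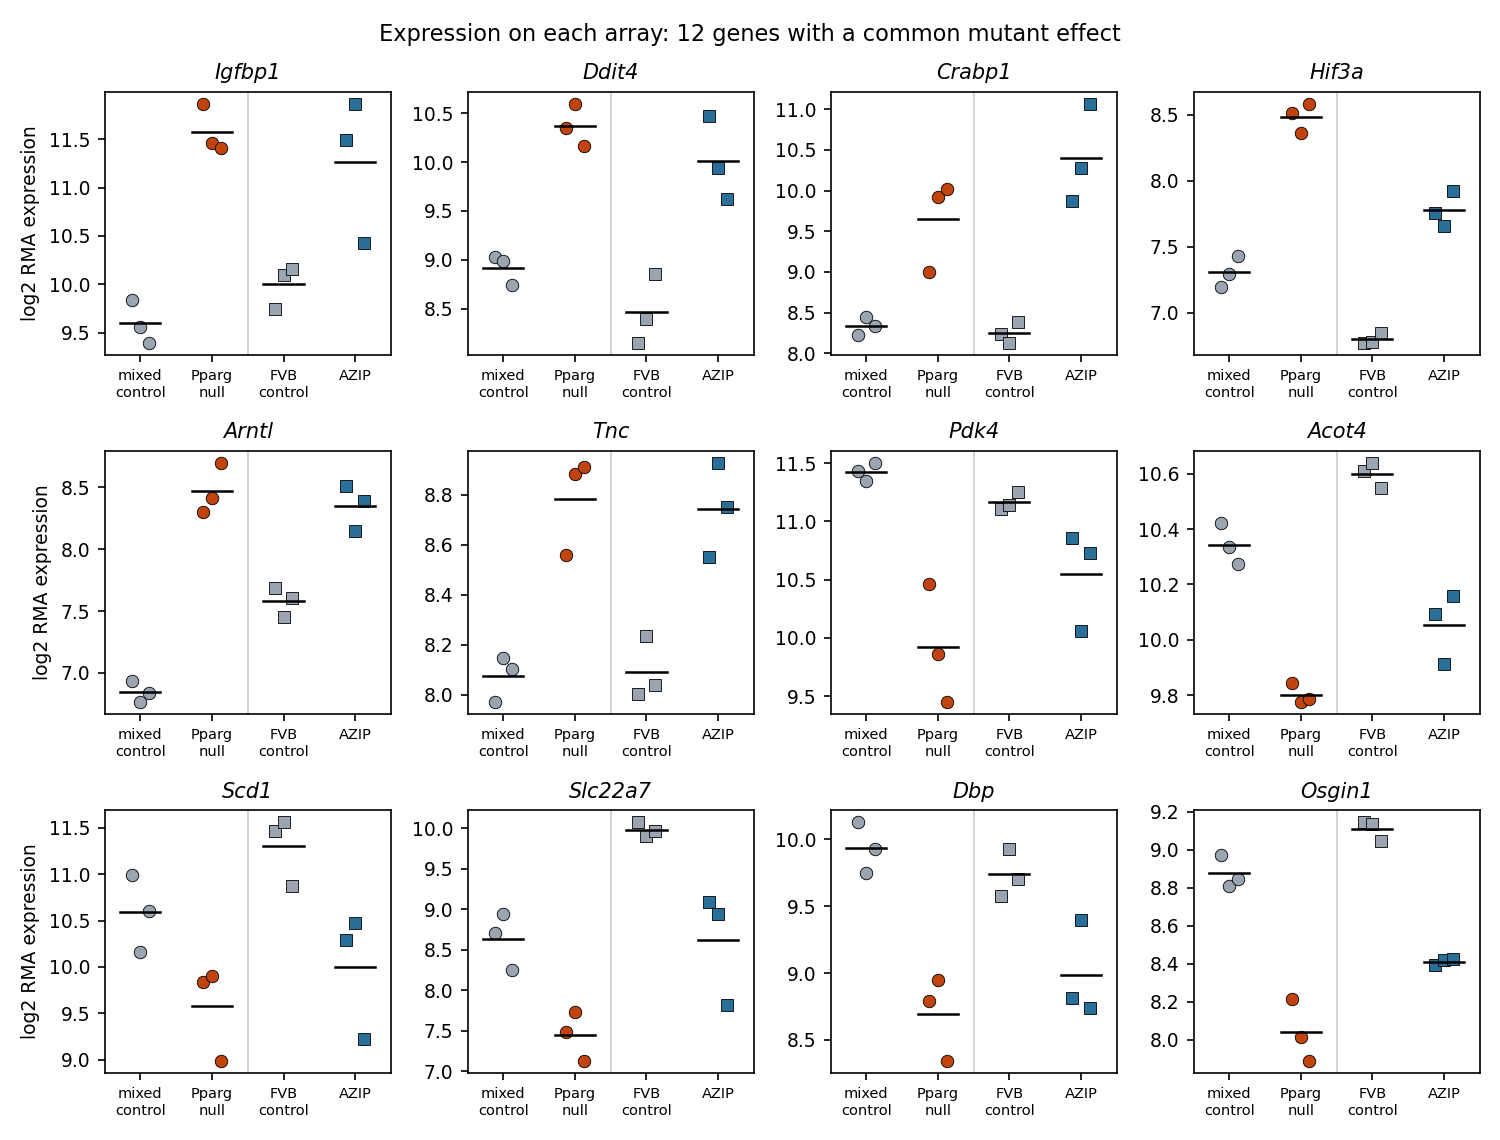
Log2 RMA expression of 12 genes on each of the 12 arrays, with control arrays in grey and mutant arrays in colour (mixed background circles, FVB background squares) and horizontal bars at the mean of 3 arrays. Igfbp1, Ddit4, Crabp1, Hif3a, Arntl and Tnc were higher on each mutant array than on each control array of the same line, and Pdk4, Acot4, Scd1, Slc22a7, Dbp and Osgin1 were lower.

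Most targets of PPARα, many of them enzymes that burn fatty acids, fell. Of 25 measured targets of PPARα 19 fell and 0 rose, 0 rising at an unadjusted limma p under 0.05 either, and the median was -0.31 against -0.00258 for all genes. All 25 estimates were below 0, and in 14 members the arrays did not overlap in either line. Acot4, an acyl-CoA thioesterase of peroxisomes, read 9.84, 9.78 and 9.79 on the Pparg null arrays against 10.42, 10.34 and 10.27, and 10.09, 9.91 and 10.16 on the AZIP arrays against 10.61, 10.64 and 10.55. The groups lay well apart in both lines, with a common effect of -0.54 ± 0.04 (limma adjusted p = 5.72e-05). Pdk4 read 10.46, 9.86 and 9.45 against 11.43, 11.34 and 11.50, and 10.86, 10.06 and 10.73 against 11.11, 11.14 and 11.25. The controls were tight and the mutant arrays scattered below them, giving -1.06 ± 0.20 (limma adjusted p = 0.00522).

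Other targets that fell were the thioesterases Acot3 (-0.80) and Acot1 (-0.54), the lipid droplet coat Plin2 (-0.60), the peroxisomal bifunctional enzyme Ehhadh (-0.57), the thiolase Acaa1b (-0.54), the pantetheinase Vnn1 (-0.45) and the carnitine palmitoyltransferase Cpt2 (-0.34). Ppara itself fell by 0.29 (-0.29 ± 0.05, limma adjusted p = 0.00457). The Acot, Acaa1 and Cyp4a genes have close paralogs, and how far their probes read each other's transcripts was not tested. The count of 19 was 12 without mixed control 1, and 3 members changed by at least 1.5-fold. The mean level of the 25 targets, relative to the controls of the same line, was between -0.57 and -0.42 on the Pparg null arrays and between -0.40 and -0.13 on the AZIP arrays.

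Both organelles that burn fatty acids were represented. Of 16 peroxisomal oxidation genes 12 fell and 0 rose (0 at an unadjusted limma p under 0.05), with a median of -0.23. Among them were the fatty acid transporter Abcd3 (-0.34), the carnitine octanoyltransferase Crot (-0.27) and the dienoyl-CoA reductase Decr2 (-0.24). Of 19 mitochondrial oxidation genes 6 fell and 0 rose, 0 rising at an unadjusted limma p under 0.05, with a median of -0.10. Slc22a5, the carnitine importer (-0.34), Cpt2 and the medium-chain dehydrogenase Acadm (-0.20) fell, and the long-chain dehydrogenase Acadl was at -0.02 ± 0.05. The peroxisomal count was 7 without mixed control 1. A difference between both lists was not tested.

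Stored lipid and its synthesis showed a mixed picture. Of 16 genes of lipid droplets and lipases 7 fell, among them the hormone-sensitive lipase Lipe (-0.43), the lipase inhibitor G0s2 (-0.33) and Cideb (-0.21), and 1 rose, the triglyceride lipase Pnpla2. The rise in Pnpla2 (0.25) was lost without any 1 of 8 arrays (Pparg null 1 or 2, mixed control 3, AZIP 1 or 2, FVB control 1, 2 or 3; limma adjusted p up to 0.0724). Of 21 genes of fatty acid and triglyceride synthesis 4 rose and 5 fell, with a median of -0.04. Scd1 read 9.84, 9.90 and 8.99 against 10.99, 10.17 and 10.61 in the mixed line, and 10.29, 10.47 and 9.22 against 11.47, 11.56 and 10.87 in the FVB line. Replicate 3 was the lowest mutant array in both lines, and the common effect was -1.16 ± 0.24 (limma adjusted p = 0.00764). Its paralog Scd2, a desaturase of the same reaction, went the other way, by 0.64 ± 0.06 (limma adjusted p = 9.5e-05). Lpin1, the phosphatidate phosphatase (0.74), and the lipogenic factor Srebf1 (0.22) rose, and the malic enzyme Me1 (-0.32) and the carbohydrate-sensing factor Mlxipl (-0.23) fell.

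Several genes of cholesterol synthesis rose. Of 19 genes of cholesterol synthesis and uptake 8 rose and 1 fell, and the median was 0.13. The sterol oxidase Msmo1 (0.84), the sterol sensor partner Insig1 (0.64), farnesyl diphosphate synthase Fdps (0.47), lanosterol synthase Lss (0.31) and squalene synthase Fdft1 (0.26) rose. The gene that fell was Cyp51, the lanosterol demethylase of the same pathway, at -0.72 ± 0.16 (limma adjusted p = 0.0109). In 4 of the members the arrays were separated in both lines. On average over the list the AZIP arrays (-0.09 to 0.28) overlapped with the FVB controls (-0.07 to 0.09), and AZIP 1 was below all of them. The monocarboxylate carrier Slc16a1, which carries ketone bodies, rose by 0.47.

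Of 16 genes that PPARγ is known to switch on in fat, 5 fell and 1 rose, with a median of -0.11. The count of falls was 2 without mixed control 1, and in 2 of the 5 the arrays did not overlap in either line. The mean level of the list was between -0.25 and -0.21 on the Pparg null arrays, against -0.03 to 0.03 in their controls. On the AZIP arrays (-0.09 to 0.03) it overlapped with the FVB controls (-0.05 to 0.03). Adipoq, the fat cell hormone adiponectin, was at -0.07 ± 0.06, and Lipe was the member with the smallest p.

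Genes that insulin holds down, or that FoxO factors switch on when insulin signalling is low, split by member. Of 20 such genes 9 rose and 4 fell, with a median of 0.18. Beside Igfbp1 and Depp1, the rises were in the stress protein Sesn1 (0.55), the metabolic factor Klf15 (0.43), the insulin receptor substrate Irs2 (0.38), the ubiquitin ligase Fbxo32 (0.32), the coactivator Ppargc1a (0.27), glucose-6-phosphatase G6pc (0.27) and Foxo3 (0.27). The falls included Pdk4, which is a PPARα target as well, and the glucose-responsive arrestin relatives Arrdc4 (-0.37) and Txnip (-0.25). The gluconeogenic enzyme Pck1 was at 0.02 ± 0.04 (limma adjusted p = 0.753). In the IGF axis the binding protein Igfbp3 fell by 0.24 (-0.24 ± 0.03), and Igf1 was at -0.18 ± 0.06 (limma adjusted p = 0.0721).

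Glucocorticoid-responsive genes were the list with the largest share of members past the threshold among the 57 lists, 86.7%. Of 15 measured genes 13 rose and 0 fell, 0 falling at an unadjusted limma p under 0.05, and the median was 0.48. Earlier results of these data were known when this list was written, so its direction is not independent evidence. Hif3a had the smallest p of all genes. It read 8.51, 8.36 and 8.58 on the Pparg null arrays against 7.19, 7.29 and 7.43, and 7.75, 7.66 and 7.92 on the AZIP arrays against 6.77, 6.78 and 6.85. The groups were far apart in each line, giving 1.08 ± 0.06 (2.11-fold, limma adjusted p = 6.61e-06).

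Zbtb16, a transcriptional repressor strongly induced by glucocorticoids, read 11.33, 11.39 and 11.23 against 10.04, 10.39 and 10.60 in the mixed line. In the FVB line it read 10.93, 11.15 and 10.91 against 10.28, 10.20 and 9.997. Each mutant array lay above each control array of its line, and the common effect was 0.91 ± 0.09 (limma adjusted p = 0.000125). The other rises included the receptor chaperone Fkbp5 (0.52), Cebpd (0.59), the phosphatase Dusp1 (0.49), the leucine zipper protein Tsc22d3 (0.48), the metallothionein Mt1 (0.46), the clock repressor Per1 (0.43) and Klf9 (0.19). The 2 members without a call were Sgk1, the kinase of sodium transport, at 0.07 ± 0.12, and Tat, a tyrosine aminotransferase of liver, at 0.00 ± 0.06. The mean level of the list was 0.58 to 0.65 above controls on the Pparg null arrays and 0.50 to 0.61 above on the AZIP arrays.

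Immediate early genes, which respond within minutes of a stimulus, were raised in part: of 22 measured, 8 rose and 1 fell, with a median of 0.15. Fosl2 (0.62), the orphan receptor Nr4a1 (0.63) and Btg2 (0.50) rose, and Myc fell by 0.37.

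**Figure D3:**
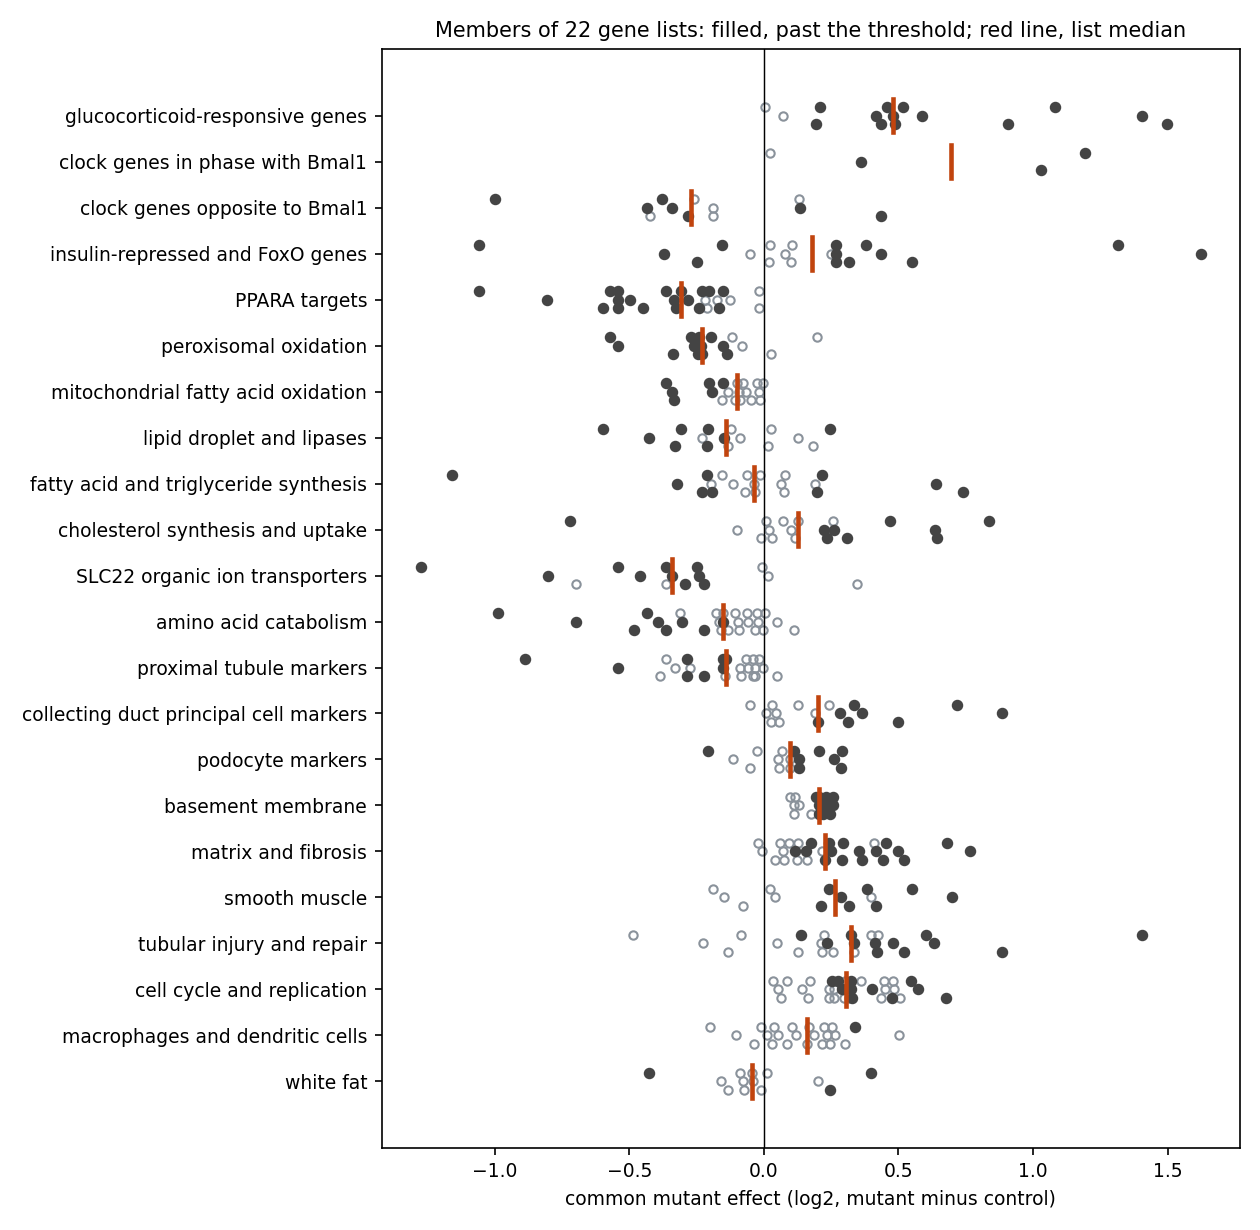
Common mutant effect (log2, mutant minus control, 6 against 6 arrays) of each measured member of 22 gene lists, with filled points for genes past the threshold and red bars at list medians. Glucocorticoid-responsive genes lie to the right of 0, PPARα targets to the left, and the medians of both clock lists on opposite sides of 0.

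Clock genes changed in both directions. Arntl, whose protein Bmal1 activates the loop, read 8.30, 8.41 and 8.70 on the Pparg null arrays against 6.94, 6.77 and 6.84. On the AZIP arrays it read 8.51, 8.15 and 8.39 against 7.69, 7.45 and 7.61. The groups did not overlap, and the common effect was 1.19 ± 0.14 (limma adjusted p = 0.000404). Dbp, an output factor that peaks when Bmal1 mRNA is low, read 8.79, 8.95 and 8.34 against 10.13, 9.75 and 9.93, and 8.81, 9.40 and 8.74 against 9.58, 9.93 and 9.70. It was lower on each mutant array, by -1.0 ± 0.14 (limma adjusted p = 0.00125), with AZIP 2 the nearest to the controls.

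Of 4 genes in phase with Bmal1 3 rose (median 0.69): Arntl, Nfil3 and the repressor Cry1. Cry1 (0.36) lost the threshold without any 1 of 8 arrays (Pparg null 1, mixed control 1 or 3, AZIP 1 or 3, FVB control 1, 2 or 3; limma adjusted p up to 0.0767). It also lost it when all probe sets were tested (limma adjusted p = 0.0613) and when the replicate number was added to the model as a block. Clock was at 0.02 ± 0.03. Of 12 genes of the opposite phase 5 fell and 2 rose (median -0.27), and the mean level of these 12 genes on the AZIP arrays (-0.27 to -0.01) overlapped with the FVB controls (-0.08 to 0.09). Besides Dbp the period gene Per3 (-0.43), the nuclear receptor Nr1d2 (-0.38), the output factor Tef (-0.34) and the repressor Bhlhe41 (-0.28) fell. Bhlhe41 lost the threshold without Pparg null 2, mixed control 1 or 3, or FVB control 2 (limma adjusted p up to 0.0569). Per1, also a glucocorticoid target, rose by 0.43, and the protease Usp2 (0.13) lost its call without any 1 of 9 arrays (Pparg null 2, mixed control 1, 2 or 3, AZIP 1 or 2, FVB control 1, 2 or 3; limma adjusted p up to 0.0866). Nr1d1 was at -0.42 ± 0.15 (limma adjusted p = 0.0915) and Per2 at -0.19 ± 0.10. All arrays came from mice kept in a 12 h light and 12 h dark cycle. The sources used here do not state the hour of collection, and its part in the clock result was not tested.

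The promoters of these members were searched for the letters that clock factors read, in RefSeq windows of the GRCm38.p6 build from 250 bases before to 50 bases after each start. The E-box CACGTG, bound by Bmal1 with Clock, was found in 1 of the 3 called genes in phase with Bmal1 (Cry1) and in 3 of the 7 called genes of the opposite phase (Tef, Per1 and Bhlhe41). Counted by promoter, since some genes have several, it lay in 1 of 4 and in 4 of 9, and in 7.15% of all 32851 promoters. The D-box TTANGTAA, read by Dbp and Tef and blocked by Nfil3, was found in Per3 at 2 places and in none of the other 9 called clock genes, against 2.32% of all promoters. Both strands were searched. Of the 4 genes with an E-box, 2 rose (Cry1, Per1) and 2 fell (Tef, Bhlhe41). Their windows of 61 bases are shown so that the motif can be seen in its surroundings, with Per3 for the D-box. Capitals mark the motif, and each window is given on the strand of its gene.
Cry1, chr10:85185081-85185141, minus strand: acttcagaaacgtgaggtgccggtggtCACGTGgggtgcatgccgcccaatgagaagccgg
Per1, chr11:69098756-69098816, plus strand: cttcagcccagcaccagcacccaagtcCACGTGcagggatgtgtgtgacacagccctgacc
Tef, chr15:81802519-81802579, plus strand: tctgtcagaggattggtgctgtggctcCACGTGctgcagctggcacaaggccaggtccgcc
Tef, other promoter, chr15:81811249-81811309, plus strand: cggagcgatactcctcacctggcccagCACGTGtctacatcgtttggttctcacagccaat
Bhlhe41, chr6:145865540-145865600, minus strand: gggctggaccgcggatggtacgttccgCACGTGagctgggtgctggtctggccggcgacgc
Per3, chr4:151044836-151044896, minus strand: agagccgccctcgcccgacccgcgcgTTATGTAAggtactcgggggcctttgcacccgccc
Per3, chr4:151044789-151044849, minus strand: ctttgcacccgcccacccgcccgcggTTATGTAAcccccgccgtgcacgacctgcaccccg
A match is a run of letters and not evidence of binding.

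Retinoid and thyroid genes changed in single members. Of 14 genes of retinoid handling 4 rose and 1 fell (median 0.05). With Crabp1, the retinoic acid-making dehydrogenases Aldh1a1 (0.51 ± 0.07, limma adjusted p = 0.000964) and Aldh1a2 (0.50 ± 0.09, limma adjusted p = 0.00326) rose, each without overlap in either line. Of 8 thyroid hormone genes 2 fell, Dio1 and the receptor Thrb (-0.22), and 0 rose, against 2 that rose at an unadjusted limma p under 0.05.

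Stress genes rose in single members. Of 21 genes of the integrated stress response 5 rose and 0 fell, 2 falling at an unadjusted limma p under 0.05, and the median was 0.03. The members that rose were Ddit4, the leucine sensor Sesn2 (0.66), the asparagine synthetase Asns (0.42), Atf3 (0.36) and the amino acid exchanger Slc7a5 (0.26). Asns lost the threshold without any 1 of 8 arrays (Pparg null 1, 2 or 3, mixed control 1 or 2, AZIP 2, FVB control 2 or 3; limma adjusted p up to 0.0783). Slc7a5 lost it without mixed control 1 (limma adjusted p = 0.0554). The count was 3 without mixed control 1. On average over its members the list was 0.21 to 0.25 above the control mean on the Pparg null arrays and 0.05 to 0.15 above it on the AZIP arrays, without overlap in either line. Ddit4, with a difference of 1.54 in the AZIP line, enters this mean, and the list level without it was not computed. The median difference of the members was 0.09 in the Pparg null line and -0.007 in the AZIP line. In 2 of the 5 members that rose the arrays did not overlap in either line. The amino acid response element TGATGNAA, read by ATF4, lay in the promoters of 2 of 4 called members that had one in the table, Asns and Atf3, against 3.97% of all promoters. The Asns window is shown because its element lies close before the start.
Asns, chr6:7693198-7693258, minus strand: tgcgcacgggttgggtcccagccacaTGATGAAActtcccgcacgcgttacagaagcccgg
Of 14 unfolded protein response genes 1 fell and 0 rose (0 at an unadjusted limma p under 0.05). The FoxO site GTAAACA lay in 2 of the 12 called members of the insulin and FoxO list with a promoter in the table, Sesn1, which rose, and Txnip, which fell, against 3.65% of all promoters. The repeat AGGTCANAGGTCA that PPARs read lay in 0 of the 16 called PPARα targets with a promoter there and in 0.0396% of all promoters.

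Among targets of NRF2, a transcription factor that switches on antioxidant genes, 5 of 21 fell and 0 rose (1 at an unadjusted limma p under 0.05). Osgin1, an oxidative stress-induced growth inhibitor, read 8.22, 8.01 and 7.89 against 8.98, 8.81 and 8.85, and 8.39, 8.42 and 8.43 against 9.15, 9.14 and 9.05. It was separated in both lines by -0.77 ± 0.05 (limma adjusted p = 2.64e-05), the third smallest p of all genes. Gclm, a subunit of glutathione synthesis, fell by 0.22. The count of 5 was 3 without Pparg null 2, Pparg null 3 or mixed control 1. Of 20 hypoxia targets 5 rose and 1 fell: beside Hif3a the glucose transporter Slc2a1 (0.31), Pdk1 (0.31) and the demethylase Kdm3a (0.23) were higher.

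Many organic ion transporters of the proximal tubule fell. Of 15 organic ion transporters of the SLC22 family 10 fell and 0 rose (0 at an unadjusted limma p under 0.05), with a median of -0.34, and in these 10 the arrays did not overlap in either line. Slc22a7 read 7.49, 7.73 and 7.13 on the Pparg null arrays against 8.71, 8.94 and 8.25, and 9.08, 8.94 and 7.82 on the AZIP arrays against 10.08, 9.90 and 9.97. It was lower on each mutant array of its line, by -1.27 ± 0.20 (limma adjusted p = 0.00175), although its level differed between the backgrounds. Slc22a19 (-0.80), the urate exchanger Slc22a12 (-0.54), the carnitine and ergothioneine transporter Slc22a4 (-0.46) and Slc22a23 (-0.36) fell as well. The main organic anion transporter Slc22a6 was at -0.36 ± 0.13 (limma adjusted p = 0.08).

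General markers of the proximal tubule were counted beside these transporters. Of 24 measured 8 fell and 0 rose (0 at an unadjusted limma p under 0.05), with a median of -0.14 and 23 of 24 estimates below 0. The receptors Lrp2 (-0.14) and Cubn (-0.15), which take up filtered protein, fell by little, and the phosphate transporter Slc34a1 was at -0.03 ± 0.03. The count was 4 without mixed control 1 or FVB control 1 and 5 without AZIP 2. In these whole-kidney samples fewer cells of a type and less RNA per cell cannot be told apart. Of 27 genes of amino acid catabolism 9 fell and 0 rose (0 at an unadjusted limma p under 0.05), with a median of -0.15, among them the conjugating enzyme Glyat (-0.43), Haao of tryptophan breakdown (-0.70), Dmgdh (-0.39) and the aminoacylase Acy1 (-0.48). That count was 5 without Pparg null 3, mixed control 1, AZIP 2 or FVB control 2.

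Carbohydrate and mineral handling changed at single steps. Of 18 glucose genes 3 rose and 4 fell; the muscle-type fructose bisphosphatase Fbp2 (-0.52), the fructose transporter Slc2a5 (-0.41) and the fructose kinase Khk (-0.25) fell. Of 17 genes of phosphate, calcium and vitamin D 2 rose and 3 fell. Cyp27b1, which makes active vitamin D, rose by 0.89 ± 0.17 (limma adjusted p = 0.00609), while the vitamin D receptor Vdr (-0.33) and the phosphate transporter Slc34a3 (-0.45) fell. Kl, the klotho co-receptor of the hormone FGF23, read 11.95, 11.88 and 11.89 against 12.06, 12.06 and 12.05, and 11.78, 11.84 and 11.75 against 11.93, 11.96 and 11.92. The change of -0.15 ± 0.03 (limma adjusted p = 0.00544) was small, and the groups nonetheless did not overlap. Of 20 cytochrome P450 genes 3 rose and 5 fell, the latter count 3 without mixed control 1. Cyp2e1 fell by 0.89, and Cyp2j13 rose by 0.68.

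Markers of collecting duct principal cells rose in part. Of 17 markers of collecting duct principal cells 8 rose and 0 fell (0 at an unadjusted limma p under 0.05), with a median of 0.20. They included the keratins Krt19 (0.88) and Krt7 (0.31), the urea transporter Slc14a2 (0.72), the water channels Aqp4 (0.50) and Aqp2 (0.36) and the sodium channel subunit Scnn1a (0.28). Of 17 thick limb and distal markers 1 rose, the kinase Stk39 (0.21), and 1 fell, Egf (-0.19). These were 11.8% of that list, near the 12.5% of all genes. Of 15 intercalated cell markers 1 rose and 0 fell (1 at an unadjusted limma p under 0.05). Krt19 and Krt7 also belong to urothelium, of whose 16 markers 5 rose: Krt7, Krt15, Psca, Krt5 and Pparg. In 2 of these 5 the arrays did not overlap in either line. Krt5 was at 1.80 in the Pparg null line and 0.17 in the AZIP line. The call of Pparg was lost without any 1 of 6 arrays. The mean level of the urothelial list was 0.10 to 0.25 above the control mean on the Pparg null arrays and 0.07 to 0.22 above it on the AZIP arrays, which overlapped with the FVB controls (-0.09 to 0.09), and its part in the keratin result was not tested. The urothelial count was 3 without mixed control 1.

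Podocyte markers rose in part. Of 16 podocyte markers 7 rose and 1 fell, with a median of 0.10. The count of 7 was 5 to 6 whichever array was left out. The fall was lost without Pparg null 2 or 3, mixed control 1 or 3, AZIP 1 or 2, or any 1 FVB control. Among the rises Nphs1 (0.11, limma adjusted p = 0.0478) lost the threshold whichever of the 12 arrays was left out. Nphs1 also lost it under 5 other settings, the model of 4 group means among them (limma adjusted p up to 0.933). Kirrel, a protein of the slit diaphragm, read 8.52, 8.58 and 8.55 against 8.24, 8.28 and 8.29, and 8.51, 8.63 and 8.61 against 8.32, 8.28 and 8.27. The arrays of each group lay within a narrow band, and the difference of 0.29 ± 0.03 (limma adjusted p = 0.00021) exceeded it in both lines. The podocyte factor Wt1 (0.29) and the cell cycle inhibitor Cdkn1c (0.26) rose too. Of 18 endothelial markers 2 rose, Vwf (0.22) and Flt1 (0.15), and 1 fell, Btnl9 (-0.41), with a median of 0.03. Past the threshold were 16.7% of them, near the 12.5% of all genes.

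Of 17 basement membrane genes 10 rose and 0 fell (0 at an unadjusted limma p under 0.05), all 17 estimates lay above 0, and the median was 0.20. The laminin chain Lamc1 (0.26), nidogen Nid1 (0.26), the collagen chains Col4a1 (0.23) and Col4a2 (0.25) and perlecan, Hspg2 (0.23), rose by similar amounts. Of 29 genes of interstitial matrix and fibrosis 17 rose and 0 fell (0 at an unadjusted limma p under 0.05), with a median of 0.23. Tnc, the matrix protein tenascin C, read 8.56, 8.88 and 8.91 against 7.97, 8.15 and 8.10, and 8.55, 8.93 and 8.75 against 8.0, 8.23 and 8.04. Both lines were separated, by 0.68 ± 0.08 (limma adjusted p = 0.000299).

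Periostin, Postn (0.77), the collagen VI chains Col6a1 (0.50) and Col6a2 (0.45), elastin, Eln (0.44), and the collagen chains Col1a2 (0.36), Col1a1 (0.35) and Col3a1 (0.29) rose as well. Of 14 smooth muscle genes 8 rose and 0 fell (2 at an unadjusted limma p under 0.05), including the actin Acta2 (0.70), which myofibroblasts share, Tagln (0.55) and the factor Myocd (0.29). The mean level of the smooth muscle list was 0.26 to 0.39 above controls on the Pparg null arrays and 0.09 to 0.23 above on the AZIP arrays, and its part in the matrix result was not tested.

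**Figure D4:**
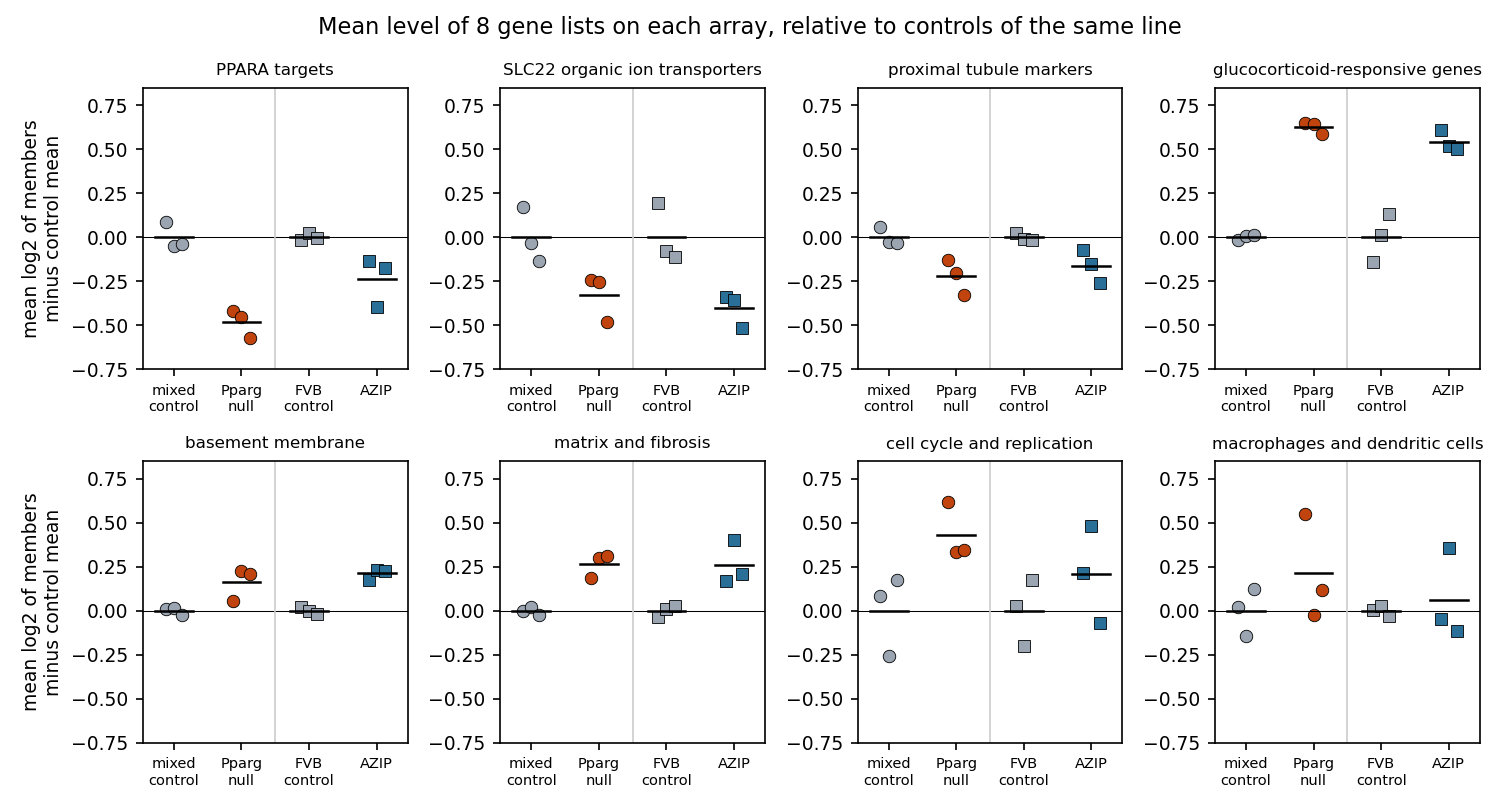
Mean log2 level of the measured members of 8 gene lists on each array, minus the mean of the control arrays of the same line, with bars at the mean of 3 arrays. PPARα targets, SLC22 transporters and proximal tubule markers lie below 0 on each mutant array and glucocorticoid-responsive, basement membrane and matrix genes above, whereas the macrophage list overlaps with controls in both lines and the cell cycle list in the AZIP line.

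Genes of tubular injury and repair were higher in part. Of 25 measured 12 rose and 0 fell (0 at an unadjusted limma p under 0.05), with a median of 0.32. Lcn2 read 10.50, 9.29 and 9.69 on the Pparg null arrays against 7.89, 7.75 and 8.01, and 8.09, 8.57 and 8.19 on the AZIP arrays against 7.56, 7.23 and 7.46. The differences were 1.94 in the Pparg null line and 0.87 in the AZIP line, and the test between the lines gave a limma adjusted p of 0.746. The arrays did not overlap in either line, and the common effect was 1.40 ± 0.22 (limma adjusted p = 0.00209). The calcium-binding S100a6 (0.63), the annexins Anxa3 (0.48) and Anxa1 (0.41) and vimentin, Vim (0.42), rose. Havcr1, the injury marker KIM-1, was at 0.21 ± 0.24 (limma adjusted p = 0.647). Lcn2 is also made by neutrophils, and it is itself 1 of the 17 neutrophil markers counted. Of these markers 3 rose (17.6%, against 12.5% of all genes past the threshold): Lcn2, S100a8 (0.42) and Ngp. The rise of Lcn2 thus enters the counts and the list level that follow. The mean level of the neutrophil list was 0.22 to 0.52 above the control mean on the Pparg null arrays and 0.04 to 0.14 above it on the AZIP arrays, where it met the controls. Of the 17 neutrophil markers 13 lay above 0, with a median of 0.16, and their part in the Lcn2 result was not tested.

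All 33 measured genes of cell cycle and replication had estimates above 0 (median 0.31), and 11 passed the threshold. The ribonucleotide reductase subunit Rrm2 (0.68), the helicase subunits Mcm6 (0.57), Mcm3 (0.48) and Mcm2 (0.40) and cyclin D1, Ccnd1 (0.27), rose. The proliferation marker Mki67 was at 0.44 ± 0.24 (limma adjusted p = 0.272) and Top2a at 0.45 ± 0.20 (limma adjusted p = 0.167). These genes varied together between arrays: the list level on AZIP 3 was -0.07 relative to its controls and on AZIP 2 it was 0.48. The count of 11 was 7 without mixed control 1 and 17 without AZIP 3. Of 15 imprinted growth genes 6 rose and 0 fell (0 at an unadjusted limma p under 0.05), among them Peg3 (0.34) and Grb10 (0.18), a brake on insulin signalling. Of 12 genes of the EGF family and its receptors 3 rose, among them the ligand Btc (0.31) and the receptor Egfr (0.23), and 1 fell, Egf (-0.19).

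Few immune cell markers passed the threshold for the common effect. Of 23 macrophage and dendritic cell markers 1 rose, Mrc1 (0.34), and its call was lost without any 1 of 8 arrays (Pparg null 1 or 2, mixed control 1, 2 or 3, FVB control 1, 2 or 3; limma adjusted p up to 0.0703). Of the 23 estimates 19 lay above 0, with a median of 0.16. Csf1r, 1 of the 4 below 0, was at -0.20 ± 0.07 (limma adjusted p = 0.0789). None of 12 antigen presentation genes and none of 14 T and NK cell markers passed by limma, 0 at an unadjusted p under 0.05 in either list. In the antigen presentation list 10 of 12 estimates lay above 0 (median 0.11), and in the T and NK cell list 5 of 14 (median -0.04). Of the T and NK cell markers 2 fell without Pparg null 1. Mean levels on the Pparg null arrays ran from -0.28 to 1.12 relative to controls for antigen presentation, a wider spread than any other list had on these 3 arrays. Of 14 interferon genes 1 rose, Ifit2 (0.35). In the complement list the receptor C5ar1 (0.38) rose and the factor Cfb (-0.40) fell.

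Markers of neighbouring tissues were counted for cells that may lie beside the kidney. Of 13 white fat markers 2 rose and 1 fell, with list levels from -0.11 to -0.05 on the Pparg null arrays and from -0.01 to 0.09 on the AZIP arrays. Among them Aoc3, an amine oxidase also of smooth muscle, rose by 0.40. Of 14 skeletal muscle markers 1 fell, of 13 adrenal markers 1 rose and 1 fell, of 8 pancreas markers 0 passed by limma (3 at an unadjusted p under 0.05), and of 9 liver genes 2 fell, among them Apob (-0.55). Of 12 brown fat markers 1 rose and 1 fell, the latter being Ppara. The shares past the threshold were 23.1% for white fat, 22.2% for liver, 16.7% for brown fat and 15.4% for adrenal. They were 7.14% for skeletal muscle and 0% for pancreas, against 12.5% of all genes.

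The additive effect averages both lines, and the difference between the lines was tested gene by gene. Only 4 of 19938 genes passed by limma (1160 at an unadjusted p under 0.05), and of the 2500 genes with a common effect Krt5 alone was among them. Krt5, a keratin of basal urothelium, read 8.55, 8.32 and 8.95 on the Pparg null arrays against 6.86, 6.67 and 6.91. On the AZIP arrays it read 6.80, 7.05 and 6.88 against 6.70, 6.91 and 6.61. The Pparg null arrays stood apart and the AZIP arrays overlapped with their controls, so the common effect of 0.98 ± 0.25 (limma adjusted p = 0.0214) describes neither line. With mixed control 1 left out it missed the threshold (limma adjusted p = 0.0543). For the other genes a p above the threshold does not show equal effects in both lines: the SE of the difference had a median of 0.0987, against 0.0499 for the common effect.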

How the data were processed

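Whole-kidney RNA was measured on Affymetrix arrays. The deposited log2 values come from RMA, run by the authors in Expression Console of Affymetrix per the submitters' processing notes, with versions and genome build not stated; array medians lay between 7.17 and 7.21. Of 35556 probe sets 21789 carried 1 gene symbol, 1621 several and 12146 none. Symbols were updated through Entrez identifiers for 21698 probe sets. For each of 19938 genes the probe set with the highest mean was used. Paralogs may share probes.

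The model was expression by background plus mutant status, fitted with 9 residual degrees of freedom (R 4.3.3, limma 3.58.1), with Benjamini-Hochberg adjustment over all genes and a threshold of 0.05. The difference between the lines came from a model of 4 group means (8 residual degrees of freedom). The scripts were tested on simulated data. Summaries used Python 3.11.15, and promoters came from RefSeq. Pooling makes the spread between arrays smaller than that between single mice, and the labels do not say whether pools were prepared separately. The number of arrays limits the precision.

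The comparison and 57 gene lists (907 of 998 entries measured) were chosen with earlier results of these data known. Genes named by rule were Pparg, the 15 largest rises and falls without overlap, up to 4 members of each list with the smallest p, genes differing between lines and the 5 smallest p. Other list members named were chosen after their values were seen.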

Additional observations from a re-analysis of the deposited data

Results flagged for a closer look

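In 4 genes the AZIP difference and the Pparg null difference were unlike, by limma's test of the difference itself over all genes. Krt5 rose by 1.80 in the Pparg null line and was 0.17 higher in the AZIP line, a difference of -1.63 (AZIP minus Pparg null, limma adjusted p = 0.0215). Cfi, the complement factor I protease, was at -1.48 in the Pparg null line and 0.12 in the AZIP line, a difference of 1.60 (limma adjusted p = 0.0215). Its level differed between the backgrounds: the mixed control arrays read 9.43, 9.14 and 9.68 and the FVB control arrays 5.455, 5.69 and 5.625. Whether a fall could be read at the lower FVB level was not tested. Actg2, a smooth muscle actin, was at 0.91 and -0.12, a difference of -1.03 (limma adjusted p = 0.0206). Ptgds, a prostaglandin D synthase, was at -0.74 and 0.31, a difference of 1.05 (limma adjusted p = 0.0215). Of these, Krt5 alone also passed the threshold for the common effect.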

How the results depend on the processing

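Leaving out 1 array gave 1657 (without mixed control 1) to 2514 genes (without Pparg null 1) for the common effect, 841 to 1267 of them higher and 816 to 1264 lower. Of the 1657 genes, 1634 were among the 2500. Without a term for strain background, which leaves the difference between backgrounds in the residual, 1253 genes passed (679 higher, 574 lower), all among the 2500. Stricter rules left 123 genes at 1.5-fold (65 higher, 58 lower) and 1657 without overlap (808 higher). The model of 4 group means gave 2509 genes, 2364 of them shared.

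The replicate numbers were not taken as pairs: 9 of 18 same-number pairs had a correlation of deviations over 0.1 (-0.21 to 0.247), against 6 of 36 pairs with other numbers (-0.26 to 0.245). Between both control groups all 3 same-number pairs exceeded 0.1 (0.135 to 0.247, other numbers up to 0.005). With the replicate number as a block 2620 genes passed, 2325 shared, and 5 of 225 named or listed genes that were followed lost their call, Cry1 among them (limma adjusted p = 0.0507). The difference between the lines passed in 1 gene with the replicate block, 1 without genes under percentile 50 of mean expression, 0 with all probe sets, 7 at an adjusted p under 0.10 and 0 (without AZIP 1, AZIP 2 or FVB control 2) to 9 (without Pparg null 2) when 1 array was left out. The other 9 settings of normalization, filter, probe sets, variance and weights kept the common count within 1.5 times.

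Of the 225 genes 146 kept their call under each of the 24 settings in which they were tested. A gene removed by a filter on mean expression was not tested under that filter. Of the 225 genes, 38 lost their call without some array, 74 under another setting (70 without the strain term) and 0 changed sign. List counts of 0 to 2 members moved by at most 2 when 1 array was left out. With 3 pooled arrays a group, small changes and differences between the lines were measured with limited precision.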

Other observations

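Beyond the lists, 3 of the 5 genes with the smallest p belonged to none of the pathways described above. Tmem100, a membrane protein of endothelium induced by BMP signalling, read 7.99, 8.32 and 8.09 on the Pparg null arrays against 6.97, 7.2 and 7.24, and 8.03, 8.13 and 8.07 on the AZIP arrays against 7.08, 7.25 and 7.09. Each mutant array lay above each control array, by 0.97 ± 0.06 (limma adjusted p = 1.27e-05). Edn1, the peptide endothelin 1 that constricts vessels and inhibits sodium uptake in the collecting duct, rose by 0.81 ± 0.06 (limma adjusted p = 2.64e-05). Its mutant arrays read 8.02, 8.04, 8.1, 7.9, 8.18 and 8.0, and its control arrays 7.12 to 7.37, with no overlap. Tmprss2, an epithelial surface protease, was 0.37 ± 0.03 higher (limma adjusted p = 3.37e-05), and its mutant arrays lay between 11.65 and 11.75 against 11.28 to 11.37 in the controls.

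Further genes of the largest changes are given by array. Fcamr read 6.32, 6.39 and 6.3 on the Pparg null arrays against 7.52, 7.32 and 7.3, and 6.84, 6.55 and 6.25 on the AZIP arrays against 7.4, 7.5 and 7.42. Penk read 9.28, 9.23 and 9.7 against 7.89, 8.56 and 8.43 in the mixed line, and 9.09, 9.37 and 9.32 against 7.81, 7.85 and 8.25 in the FVB line. Neither gene overlapped between mutants and controls of a line, which the choice of the largest changes required. Mfsd2a had the largest fall and a wide spread: Pparg null 3 read 7.16 and AZIP 3 read 7.1, whereas the other mutant arrays read 7.91 to 8.69 and the controls 8.88 to 10.24.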
